A study of Homo sapiens with 4 samples.

Results

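The mRNAs of 5 subunits of the translation elongation factors (EEF1A1, EEF1B2, EEF1D, EEF1G and EEF2) and of 3 other proteins (TPT1, PABPC1 and NAP1L1) were examined in polysome profiling of METTL3 WT and METTL3 K177Q breast cancer cells. These 8 genes were chosen by name as known TOP mRNAs, which open with a 5′ terminal oligopyrimidine tract, out of 28198 genes in the table, and all 8 were found. MDA-MB-231 cells, a human triple-negative breast cancer line, had been depleted of METTL3, the catalytic subunit of the m6A RNA methyltransferase, and were reconstituted by lentivirus with wild-type METTL3 or with METTL3 K177Q, in which a glutamine stands in for an acetylated lysine. Cells of both genotypes were treated with cycloheximide before lysis, and gradient fractions were pooled into sub-polysomes (ribosomal subunits and single ribosomes) and polysomes. Each pool was sequenced after poly(A) selection, and 4 libraries were analysed, all labelled replicate 2. There was thus 1 library for each genotype and fraction, so values carry no replicate error and the genotypes were compared without a test. The labels do not say whether the cells of a genotype were a clone or a pool.

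A TOP mRNA begins with a cytosine at its cap, followed by an unbroken run of pyrimidines. The class holds the mRNAs of the ribosomal proteins, of the elongation factors and of a few other proteins, and its translation is known to follow the activity of the mTORC1 kinase: when the kinase is inhibited, the mRNAs leave the polysomes together, held by the cap- and TOP-binding protein LARP1. In elongation, eEF1A, encoded by EEF1A1 in most tissues, carries aminoacyl-tRNA to the ribosome as a GTP-bound protein. The eEF1B complex of EEF1B2, EEF1D and EEF1G products recharges it with GTP, and eEF2 moves the ribosome along the mRNA by a codon.

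The annotated start sites show the tract directly. RefSeq start sites on GRCh38.p14 were present in the sequence table for 6 of the 8 genes, not for EEF1D and PABPC1, and each line below gives 10 bases before and 15 bases from the start that is also the start of the canonical GENCODE 44 transcript. Capitals mark the pyrimidine run that begins with a C at the annotated start.
EEF1A1 (chr6:73521018-73521042, minus strand): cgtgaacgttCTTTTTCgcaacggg
EEF1B2 (chr2:206159885-206159909, plus strand): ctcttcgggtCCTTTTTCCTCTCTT
EEF2 (chr19:3985449-3985473, minus strand): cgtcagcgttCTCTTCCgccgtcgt
TPT1 (chr13:45341169-45341193, minus strand): ctgagtcggcCTTTTCCgcccgctc
NAP1L1 (chr12:76084671-76084695, minus strand): gctcttgggtCTTTTTTagcgccat
EEF1G (chr11:62573877-62573901, minus strand): cgggcggcttactttgcggcagcgc
The run was 7 bases long in EEF1A1, EEF2, TPT1 and NAP1L1, and in EEF1B2 it went on for 16 bases, past the end of the line. RefSeq also holds an upstream start of EEF1B2, at position 206159609, which begins with an A. EEF1G had an A at its annotated start, and a run of 4 pyrimidines began at the next base. For contrast, the starts of a paralog of NAP1L1 and of EEF1E1, a gene named with the elongation factors, neither counted here as a TOP mRNA, are shown.
NAP1L4 (chr11:2992315-2992339, minus strand): gggagccggcgttgttggaggccac
EEF1E1 (chr6:8102534-8102558, minus strand): tgcaggtctcgcgtctgccaggagc
A C followed by at least 4 pyrimidines, read on the gene's own strand from any annotated start, was found at 5 of the 6 genes. It was found at 48 of 67 ribosomal protein genes (71.6%). Counted in the same way, 603 of 8672 genes outside the TOP lists averaging 1 FPKM or more had it (6.95%). Of such genes averaging 100 FPKM or more, 9.59% had it. Of all 35116 annotated starts, counted singly, 4.07% had it. An annotated start is one position, while transcription can begin over several bases, so a start without the run says only that these letters are not there.

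The genes differ in size as well as in function. By the canonical transcripts of GENCODE 44 on GRCh38, EEF1A1 lies on chromosome 6 from 73515750 to 73521032 with a coding length of 1386 bases, and EEF1B2 on chromosome 2 from 206159895 to 206162928 with 675 bases. EEF1D lies on chromosome 8 from 143579728 to 143597415 with 1941 bases, EEF1G on chromosome 11 from 62559596 to 62573891 with 1311 bases, and EEF2 on chromosome 19 from 3976056 to 3985463 with 2574 bases. Among the others, TPT1 on chromosome 13 from 45333471 to 45341183 has the shortest coding length, 516 bases. PABPC1 on chromosome 8 from 100702916 to 100722088 has 1908 bases, and NAP1L1 on chromosome 12 from 76036585 to 76084685 has 1173 bases. Each length is that of 1 transcript per gene, and which transcripts the cells used was not examined. Several of the 8 genes have many processed copies in the genome. GENCODE names 49 pseudogenes after EEF1A1, 15 after TPT1, 13 after PABPC1, 8 each after EEF1B2, EEF1D and EEF1G, 3 after NAP1L1 and 0 after EEF2. The table held 1 of those of EEF1D and 1 of those of PABPC1, both listed at 0 FPKM, and how reads that match a gene and its copies were assigned is not given in the sources used here.

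Facts of the libraries as a whole set the frame. The values are FPKM, fragments per kilobase of transcript scaled to the mapped fragments, so they are relative to each library and blind to any shift common to every message. FPKM summed to between 767949 and 1037594 per library, and 15773 to 16193 genes were above 0. METTL3 itself measured 9.39 FPKM in sub-polysomes and 38.7 FPKM in polysomes with METTL3 WT, and 5.07 and 29.5 FPKM with METTL3 K177Q, where endogenous and reconstituted mRNA are not distinguished. Of the markers for the line, VIM (vimentin), CD44 and AXL had at least 110.1 FPKM in every library and ZEB1 between 2.32 and 4.76 FPKM. The hormone receptor genes ESR1 and PGR were at most at 0.012 FPKM and the epithelial cadherin gene CDH1 had at most 0.632 FPKM, but ERBB2, a gene whose amplification the line lacks, had 12.2 to 28.3 FPKM. Of the markers of other cells, PTPRC of leukocytes had at most 0.052 FPKM, while PECAM1 of endothelium (0.537 to 1.81 FPKM) and COL1A1 of fibroblasts (0.753 to 2.59 FPKM) were low but not at 0.

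The elongation factor mRNAs were among the most abundant messages in every library. EEF1A1, the GTPase that delivers aminoacyl-tRNA, measured 2011 FPKM in sub-polysomes and 2531 FPKM in polysomes with METTL3 WT, and 2106 and 2116 FPKM, in the same order, with METTL3 K177Q. It was the highest of the 8 genes in all 4 libraries and ranked 40th among all genes in the METTL3 WT polysome library. Its level was highest there, and the other 3 libraries lay close together.

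The 3 subunits of the exchange factor eEF1B did not share one level. EEF1G, the structural subunit, measured 1412 FPKM in sub-polysomes and 1125 FPKM in polysomes with METTL3 WT, against 1589 and 947 FPKM with METTL3 K177Q. EEF1D, a subunit with exchange activity, measured 1150.5 and 1138 FPKM with METTL3 WT, against 1301 and 845 FPKM with METTL3 K177Q. Both were lowest in the METTL3 K177Q polysome library and highest in the METTL3 K177Q sub-polysome library. EEF1B2, the other exchange subunit and a shorter protein, measured 515 and 809 FPKM with METTL3 WT and 579 and 639.6 FPKM with METTL3 K177Q, so it was highest where EEF1A1 was highest. EEF2, the translocase, measured 244 and 296 FPKM with METTL3 WT and 264 and 281 FPKM with METTL3 K177Q, the narrowest spread of the 8 genes.

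The mRNAs outside the elongation factors were less abundant. TPT1, which encodes translationally controlled tumour protein, measured 265 FPKM in sub-polysomes and 94.5 FPKM in polysomes with METTL3 WT, and 361 and 78.1 FPKM with METTL3 K177Q. PABPC1, the main cytoplasmic poly(A)-binding protein, measured 234 and 68.9 FPKM with METTL3 WT, and 265 and 61.7 FPKM with METTL3 K177Q. In both genes the sub-polysome libraries lay well above the polysome libraries, whichever the genotype. NAP1L1, a histone chaperone of the nucleosome assembly protein family, measured 109 and 159 FPKM with METTL3 WT and 105 and 131 FPKM with METTL3 K177Q, with both polysome libraries above both sub-polysome libraries. Levels between genes rest on the transcript lengths the authors used, which the sources used here do not give.

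**Figure D1:**
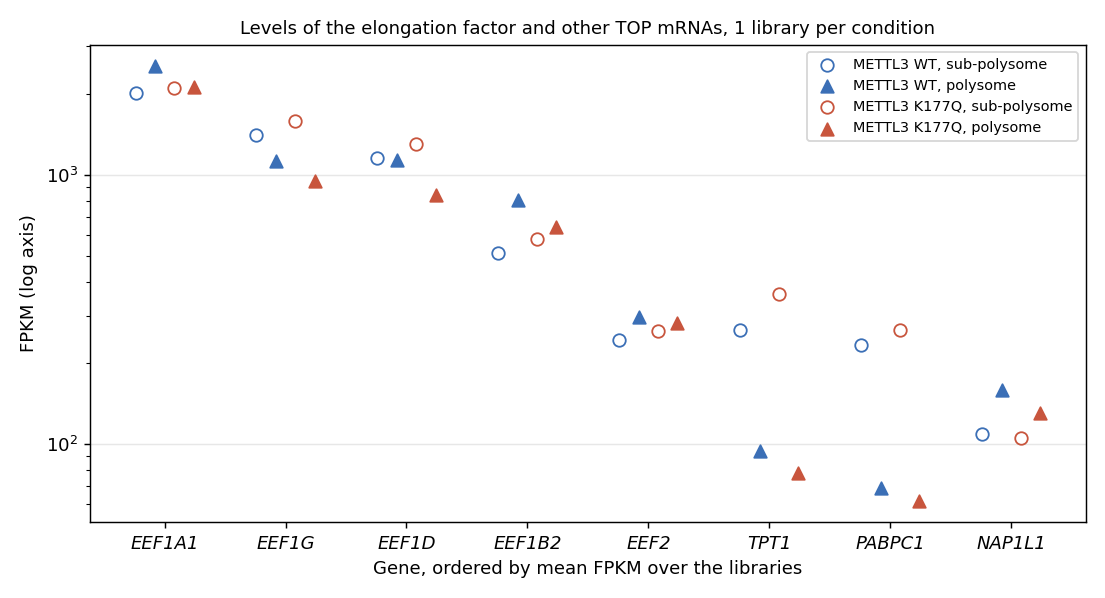
FPKM (log axis) of each of the 8 genes in the 4 libraries, 1 library per point, with circles for sub-polysome and triangles for polysome. Sub-polysome values lie far above polysome values for TPT1 and PABPC1 in both genotypes, and EEF1A1 is highest in the METTL3 WT polysome library at 2531 FPKM.

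In METTL3 WT cells, the 8 mRNAs fell into separate classes of polysome loading rather than one. EEF1B2, NAP1L1, EEF1A1 and EEF2 had more FPKM in the polysome than in the sub-polysome library, with ratios of 1.57, 1.46, 1.26 and 1.21. EEF1D was even at 0.989 and EEF1G lay lower at 0.797. TPT1 and PABPC1 stood far apart from these, with 2.81-fold and 3.39-fold more FPKM in the sub-polysome than in the polysome library. Among the 10905 genes that averaged 1 FPKM or more, TPT1 was at percentile 4.65 and PABPC1 at percentile 2.98 of the ratio, while EEF1B2 was at percentile 74.6. Only EEF1B2 was at least 1.5-fold higher in polysomes, against 28.1% of all genes, and TPT1 and PABPC1 were at least 1.5-fold lower, against 19.1%. With TPM, NAP1L1 also passed 1.5-fold higher, and with size factors 0 of 8 did, while TPT1 and PABPC1 were past 1.5-fold lower under each scaling tried. The loading did not follow the coding length: TPT1 and PABPC1, the least loaded pair, have coding lengths of 516 and 1908 bases, and EEF1B2, the most loaded, has 675. Fewer cells with a message on polysomes and fewer polysomal copies per cell cannot be told apart in pooled lysates.

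In METTL3 K177Q cells the order of the classes was kept, but every ratio was lower. NAP1L1 had 1.24 times and EEF1B2 1.11 times as much FPKM in the polysome as in the sub-polysome library, and EEF2 and EEF1A1 were close to even at 1.06 and 1.01. EEF1D and EEF1G were at 0.649 and 0.596. TPT1 had 4.62-fold and PABPC1 4.29-fold more FPKM in the sub-polysome library, so that TPT1 took the lowest place. With these values 4 of the 8 mRNAs (EEF1D, EEF1G, TPT1 and PABPC1) were at least 1.5-fold lower in polysomes, against 21.3% of all genes, and 0 were at least 1.5-fold higher, against 30.2%. With TPM, or with totals made equal leaving out ribosomal protein genes, 2 of the 8, TPT1 and PABPC1, were 1.5-fold lower, as in METTL3 WT cells, and with TPM NAP1L1 was 1.5-fold higher. The median log2 ratio over the 8 mRNAs was 0.13 in METTL3 WT and -0.31 in METTL3 K177Q cells, while that over all genes was 0.14 and 0.16. The sign of the medians over the 8 mRNAs depended on how the libraries were scaled: with each library rescaled to the same total (TPM) they were 0.27 and 0.13, and relative to the median of all genes -0.013 and -0.47.

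**Figure D2:**
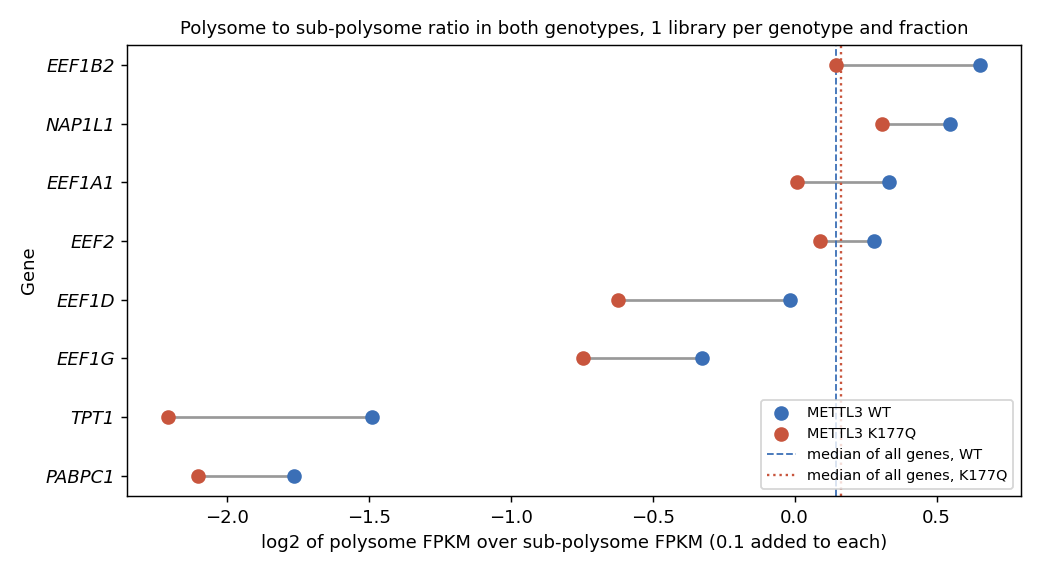
log2 of polysome over sub-polysome FPKM for each gene in METTL3 WT (blue) and METTL3 K177Q (red) libraries, 1 library per genotype and fraction, with the medians of all genes as vertical lines. Each red point lies left of its blue point, by between 0.19 (EEF2) and 0.72 (TPT1) on the log2 scale.

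The ratio of these ratios compares translation efficiency, polysome over sub-polysome FPKM, between METTL3 K177Q and METTL3 WT cells. The study formed its translation efficiency from read numbers and listed mRNAs at least 1.5-fold higher with the acetylation-mimetic METTL3. It also reported a larger polysome peak and more puromycin-labelled protein in METTL3 K177Q cells. FPKM is relative to each library, so a lower ratio here does not say that less protein was made. Translation efficiency was lower with METTL3 K177Q for all 8 mRNAs, with a median log2 ratio of -0.38 and a range from -0.72 to -0.19. Of all genes, 51.1% had a ratio below 0. TPT1 was 1.65-fold lower, a log2 ratio of -0.72, and EEF1D 1.52-fold lower, at -0.61. These were the 2 of 8 mRNAs past the 1.5-fold threshold of the study, against 7.03% of all genes, and 0 of 8 were 1.5-fold higher, against 4.08%. EEF1B2 was the next, at -0.51, followed by EEF1G at -0.42. PABPC1 was at -0.34 and EEF1A1 at -0.32. NAP1L1 at -0.24 and EEF2 at -0.19 differed least.

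Abundance has to be set beside these values, since lower ratios were common among abundant messages. Of the 1175 genes that averaged 100 FPKM or more, to which all 8 belong, 86.9% had a ratio below 0 and 11.0% were at least 1.5-fold lower. Without the 8 genes and the ribosomal protein genes, 1088 such genes were left, with a median log2 ratio of -0.24. NAP1L1 lay at this median, EEF2 lay above it, and the other 6 mRNAs lay below it. The part of abundance in the result was not tested.

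The scaling of the libraries shifted all genes alike and so did not change the order of the mRNAs. TPM moved the median of all genes from -0.01 to 0.29 and that of the 8 mRNAs to -0.08. EEF2 was then above 0, at 0.11, and so was NAP1L1, at 0.059, and 0 of 8 mRNAs passed 1.5-fold. Relative to the median of all genes, the median of the 8 was -0.37 in the values as given and with TPM, and all 8 stayed below the median of all genes. In these terms TPT1 was at -0.71, EEF1D at -0.60 and EEF2 at -0.18. If the lowest cluster of values is taken as 1 fragment, the libraries held between 24900000 and 26600000 fragments. Even with a coding length as short as that of TPT1 for every gene, each member then had at least 836 fragments in each library. Counting error alone then gives the log2 ratios standard errors between 0.017 (EEF1A1) and 0.077 (PABPC1). This approximation covers neither variation between cultures nor between gradients. With it, EEF1D, at 1.52-fold, cannot be placed on either side of 1.5-fold.

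Both fractions contributed. Polysome FPKM was lower in METTL3 K177Q than in METTL3 WT cells for all 8 mRNAs, with a median log2 difference of -0.27. EEF1D had the largest difference, at -0.43, then EEF1B2 at -0.34 and NAP1L1 at -0.28, and EEF2 the smallest at -0.08. Sub-polysome FPKM was higher for 7 of the 8, with a median of 0.17. TPT1 stood out there at 0.44, or 36.1% more FPKM, a value at percentile 92.6 of all genes. The others above 0 lay between 0.07 (EEF1A1) and 0.18 (PABPC1), and NAP1L1 was at -0.04. Over all genes the median log2 difference was -0.02 in polysomes and -0.004 in sub-polysomes. Over genes averaging 100 FPKM or more it was -0.12 in polysomes and 0.16 in sub-polysomes. No difference within a fraction reached 1.5-fold for any of the 8. Of all genes, 3.13% were 1.5-fold lower and 2.13% higher in polysomes, and 2.94% were 1.5-fold lower and 4.01% higher in sub-polysomes. The pattern of higher sub-polysome with lower polysome FPKM, seen in 7 of 8 mRNAs, was present in 23.9% of all genes and in 54.9% of those averaging 100 FPKM or more. It held for 1 of the 8, TPT1, with TPM, since the METTL3 K177Q sub-polysome library has the largest sum of FPKM.

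**Figure D3:**
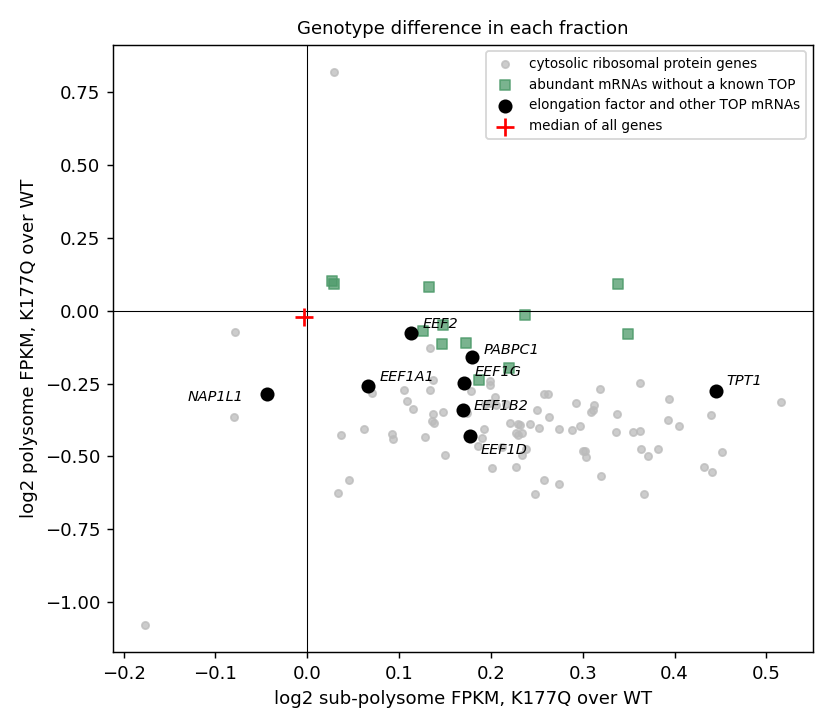
log2 difference of METTL3 K177Q from METTL3 WT in sub-polysome FPKM (x axis) and polysome FPKM (y axis), with 1 point per gene and libraries scaled as given. All 8 mRNAs (black) lie below 0 on the y axis, 7 lie right of 0 on the x axis, and TPT1 lies farthest right at 0.44.

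Ratios between mRNAs of the same library do not depend on how libraries are scaled. EEF1G and EEF1D exceeded EEF1B2 by 2.74 and 2.24 times in the METTL3 WT sub-polysome library, but by 1.39 and 1.41 times in the polysome library. The METTL3 K177Q libraries gave 2.75 and 2.25 times in sub-polysomes and 1.48 and 1.32 times in polysomes. The FPKM ratios of EEF1G and of EEF1D to EEF1B2 were therefore lower in polysomes than in sub-polysomes in both genotypes. How near the messages came to equal amounts cannot be read from them, since the transcript lengths the authors used are not given. EEF1G and EEF1D could not be ordered in the METTL3 WT polysome library, where their ratio was 0.988 with a counting standard error of 0.011, while EEF1G was higher in the other libraries, by 1.12 to 1.23 times. EEF1A1 exceeded EEF2 by 8.24 and 8.54 times in METTL3 WT cells and by 7.97 and 7.54 times in METTL3 K177Q cells.

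In profile over the 4 libraries, with each gene centred on its own mean on the log2 scale, the closest pair of the 8 was EEF1A1 and EEF2, at a distance of 0.13, and the next were EEF1B2 and NAP1L1 at 0.16 and TPT1 and PABPC1 at 0.22. The largest distance, 2.37, separated PABPC1 from NAP1L1. The exchange subunits EEF1B2 and EEF1D were 0.72 apart, farther than EEF1B2 from EEF1A1, at 0.25. Of 5371 other genes averaging 10 FPKM or more, those nearest to the median profile of the 8 over the 4 libraries were SEC11C, a signal peptidase subunit (distance 0.025), HSPE1, the mitochondrial chaperonin cofactor (0.037), ATP5MG, an ATP synthase subunit (0.040), MRPL54, a mitochondrial ribosomal protein (0.042), and TM2D3 (0.044). Ribosomal protein genes made up 3 of the 50 nearest (6%), and 83 of the 5371 genes compared (1.55%). The median profile lies between the classes of loading, so it describes none of the 8 mRNAs closely.

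Relative to EEF1A2, PABPC4 and NAP1L4, the paralogs named by rule, EEF1A1, PABPC1 and NAP1L1 had log2 translation efficiency ratios lower by differences of -0.24, -0.43 and -0.28, which do not depend on the scaling of the libraries. The paralogs themselves do: with TPM, EEF1A2 was at 0.21, PABPC4 at 0.39 and NAP1L4 at 0.34. Less abundant paralogs did not share one direction, with PABPC1L at 0.51 and NAP1L5 at -1.08. EEF1A2, the second eEF1A gene, measured 61.4 FPKM in sub-polysomes and 93.1 FPKM in polysomes with METTL3 WT, and 48.8 and 69.9 FPKM with METTL3 K177Q. Its log2 translation efficiency ratio was -0.08, and EEF1A1 exceeded it by 27.2 to 43.1 times. PABPC4, an inducible poly(A)-binding protein, measured 60.8 and 37.9 FPKM with METTL3 WT, and 55.6 and 37.0 FPKM with METTL3 K177Q, a log2 ratio of 0.09. PABPC1 exceeded it by 3.85 times in the METTL3 WT sub-polysome library but by 1.82 times in the polysome library, and in METTL3 K177Q cells by 4.77 and 1.67 times. NAP1L4, which has no pyrimidine run at the start shown above, had between 47.5 and 53.4 FPKM in the 4 libraries and a log2 ratio of 0.04. EEF1E1, an auxiliary protein of the tRNA synthetase complex, had a log2 ratio of -0.15, and of 0.15 with TPM. Over the 4 libraries EEF1A2, PABPC4 and NAP1L4 averaged 68.3, 47.8 and 50.1 FPKM. EEF1A1, PABPC1 and NAP1L1 averaged 2191, 157 and 126 FPKM. Genes averaging 100 FPKM or more had a median log2 ratio of -0.26, against -0.01 for all genes. The part of abundance in these differences was not tested. PABPC4 is itself listed among the further TOP mRNAs below. Whether a member and its paralog differed beyond replicate error was not tested.

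Of 14 further TOP mRNAs outside the ribosomal proteins, 12 had a log2 ratio below 0, against 51.1% of all genes and 86.9% of the abundant genes. The median was -0.28. At least 1.5-fold lower was 1 of the 14 (7.14%), against 7.03% of all genes and 11.0% of the abundant genes. With TPM, 6 of the 14 were below 0 and the median was 0.02. Below 0 with TPM were also 2307 of all 10905 genes and 514 of the 1175 abundant genes. The lowest were RACK1, a scaffold protein of the small ribosomal subunit, at -0.60, PFDN5, a prefoldin subunit, at -0.57, and RABGGTB, a geranylgeranyl transferase subunit, at -0.44. EIF4B, an initiation factor that stimulates the eIF4A helicase, went the other way at 0.35, although a pyrimidine run of 5 bases opens its annotated start. PABPC4 at 0.09 and VIM at -0.03 were the next highest. Annotated starts were present for 9 of the 14, and 8 had the run, with a median of -0.40. The start of VIM did not have it, and no start of PABPC4 was present. The start of EIF4B and the longer run of RACK1 are given for comparison.
EIF4B (chr12:53006446-53006470, plus strand): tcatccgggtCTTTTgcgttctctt
RACK1 (chr5:181243892-181243916, minus strand): gcttttctctCTCTCTTTCactgca
The 84 cytosolic ribosomal protein genes had a median log2 ratio of -0.63, lower than 7 of the 8 mRNAs. At least 1.5-fold lower were 64.3% of them, against 7.03% of all genes and 11.0% of genes averaging 100 FPKM or more. This share depended on the scaling. With TPM, 6 of the 84 were at least 1.5-fold lower (median -0.33), against 289 of all 10905 genes and 16 of the 1175 abundant genes. With totals made equal leaving out ribosomal protein genes, 13 of the 84 were (median -0.40), against 345 of all 10905 genes and 30 of the 1175. Apart from these lists, 603 of 8672 genes with an annotated start had the run. Their median log2 ratio was -0.05, against 0.01 for those without it. For those averaging 100 FPKM or more these medians were -0.32 for 85 of 886 genes with the run and -0.23 without. Among the 6 of the 8 mRNAs with an annotated start, the median was -0.32 for the 5 with the run. EEF1G, without it, was lower at -0.42. Ribosomal protein genes had medians of -0.65 with the run and -0.52 without. Whether the run goes with the ratio was not tested.

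Abundant mRNAs without a known TOP tract, which were listed as a reference, had a median log2 ratio of -0.25, with 10 of 12 below 0 and 0 past 1.5-fold. Of genes averaging 100 FPKM or more, 86.9% were below 0 and 11.0% were at least 1.5-fold lower. With TPM, 3 of 12 were below 0, against 2307 of all 10905 genes and 514 of the 1175 averaging 100 FPKM or more. The lowest were the thymosins TMSB4X (-0.43) and TMSB10 (-0.42) and the myosin light chain MYL6 (-0.42), values that 3 of the 8 TOP mRNAs were below. The highest were the glycolytic enzymes ENO1 (0.08) and PKM (0.06) and the actin gene ACTB (-0.05). Polysome FPKM of these abundant mRNAs had a median log2 difference of -0.06, against -0.27 for the 8 TOP mRNAs, while their sub-polysome FPKM had 0.16, against 0.17. The lists differed more in the polysome than in the sub-polysome fraction, and this difference was not tested.

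Genes that act on the elongation factors or on TOP mRNAs had medians above that of the 8 mRNAs and near that of all genes, -0.01. With TPM these medians were 0.26 and 0.33, against -0.08 for the 8 and 0.29 for all genes. The 8 belong to the genes averaging 100 FPKM or more, with a median of -0.26 as given and 0.04 with TPM. The part of abundance in this contrast was not tested. Of 20 elongation-related genes, including the enzymes that make diphthamide on eEF2 and the methyltransferases of eEF1A, the median log2 ratio was -0.04. Among them 13 (65%) were below 0, against 51.1% of all genes, and 1 was at least 1.5-fold higher, against 4.08% of all genes. That gene was EEF2K, the kinase that inhibits eEF2, at 1.52-fold, with between 1.18 and 1.73 FPKM, close to the minimum of 1 FPKM. It did not reach 1.5-fold with a pseudocount of 1 (log2 ratio 0.38) or with size factors (0.58). EEF1AKNMT, which methylates eEF1A, was at 0.28 and EIF5A2, a minor isoform of eIF5A, at 0.26. The lowest were EEF2KMT, an eEF2 methyltransferase, at -0.49, EEF1AKMT3 at -0.42 and DPH7, of the diphthamide pathway, at -0.24. Among 8 RNA-binding proteins of the TOP and La-related group, 5 were above 0 and the median was 0.03. The 3 below 0 made up 37.5%, against 51.1% of all genes. LARP1, the TOP-binding repressor, measured 24.8 FPKM in sub-polysomes and 25.5 FPKM in polysomes with METTL3 WT, and 19.9 and 30.9 FPKM with METTL3 K177Q. Its polysome value was highest and its sub-polysome value lowest in METTL3 K177Q cells, with 1.51-fold higher translation efficiency (log2 ratio 0.59). With a pseudocount of 1 its log2 ratio was 0.57 and with size factors (median of ratios) also 0.57, both short of 1.5-fold. LARP1 is on a list the study chose for increased translation efficiency in these cells, so its direction is not independent evidence. LARP4B was at 0.47 and TIAL1 at 0.07, and TIA1 at -0.24, LARP1B at -0.06 and SSB at -0.01 were the lowest.

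Of the poly(A)-binding proteins and the proteins that bind them, 5 of 8 averaged 1 FPKM or more, with a median log2 ratio of 0.09. All 5 were above 0 under each scaling tried. Of all 10905 genes, 8598 were above 0 with TPM, 8033 with equal totals and 5332 as given. The median of all genes as given was -0.01. PAIP1, which stimulates translation through PABPC1, was at 0.30, and PAIP2, which inhibits it, at 0.06. The nuclear poly(A)-binding protein PABPN1 was at 0.09, and PABPC1L was at 0.51 with between 1.75 and 7.10 FPKM. In the family of NAP1L1, 5 of 6 listed genes were in the table and 4 passed the minimum, with a median of -0.08. SET, a histone chaperone of related fold, was at -0.06, NAP1L3 at -0.10, and NAP1L5, with 0.993 to 1.78 FPKM, at -1.08.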

How the data were processed

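Polysome profiling RNA-seq was analysed in 4 libraries, 1 for each genotype (METTL3 WT, METTL3 K177Q) and fraction. The authors deposited FPKM per gene, and the processing notes name STAR 2.7, StringTie 2.1.5 and hg38 without roles. Annotation and filters are not given in the sources used here. Another 4 value columns in the table, numbered as replicate 1 by their names, correspond to none of the listed samples and were not analysed here. Translation efficiency was log2 of (polysome FPKM + 0.1) over (sub-polysome FPKM + 0.1), and its difference between genotypes was taken as METTL3 K177Q minus METTL3 WT over genes averaging 1 FPKM or more. With 1 library per condition no test was made, and 1.5-fold, the threshold of the study, was used for counts. The whole-table shares stand beside them. The approximate number of fragments came from the lowest cluster of FPKM multiplied by the canonical transcript length, an approximation.

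The 8 genes and all lists were chosen with earlier results of these data known. Named genes were the 8 genes, METTL3, LARP1, 4 paralogs, the 3 highest and 3 lowest of each list and the 5 genes nearest in profile, by Euclidean distance. GENCODE 44 gave positions and lengths, and RefSeq gave start sequences. The calculation was tested on simulated data. Alternatives were other pseudocounts, minima, scalings, a centring and a 2-fold threshold. Python 3.11.15, pandas 2.3.3, numpy 2.4.6 and matplotlib 3.10.9 were used.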

Additional observations from a re-analysis of the deposited data

Results flagged for a closer look

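The difference between METTL3 K177Q and METTL3 WT cells went opposite ways in the polysome and sub-polysome fractions for 7 of the 8 mRNAs, lower in the first and higher in the second, with 1 library per condition. The difference between the fractions was not tested. Its size is the log2 translation efficiency ratio, which was -0.72 for TPT1, -0.61 for EEF1D, -0.51 for EEF1B2, -0.42 for EEF1G, -0.34 for PABPC1, -0.32 for EEF1A1 and -0.19 for EEF2. With TPM or with equal totals of all genes but the ribosomal protein genes, the opposite directions were left for 1 of them, TPT1.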

How the results depend on the processing

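No paired analysis was possible because each condition had a single library among the listed samples (columns numbered as replicate 1 were not analysed here), and for the same reason no replicate was left out. The median log2 ratio of the 8 mRNAs stayed below 0 under each alternative, and was -0.081 with TPM and -0.14 when totals were made equal leaving out ribosomal protein genes (equal totals), where 0 of 8 were at least 1.5-fold lower. The 2-fold threshold also left 0 of 8. These rescalings add the same amount to each gene. The median polysome to sub-polysome ratio of the 8 in METTL3 WT cells was 0.27 with TPM and turned to -0.012 with size factors and -0.013 with centring. In METTL3 K177Q cells it turned to 0.13 with TPM and was -0.094 with equal totals, -0.47 with size factors and -0.47 with centring. Genes at least 1.5-fold lower and higher numbered 767 and 445 as given, 315 and 2070 with TPM, 341 and 1513 with equal totals, 2140 and 1823 without a filter, 1571 and 1215 with a minimum mean of 0.1 FPKM, and 312 and 38 with 10 FPKM. They numbered 129 and 0 with 100 FPKM, a minimum chosen after seeing the data, and 207 and 84 at 2-fold. A pseudocount of 1 gave 159 higher. The counts given here for TPM and equal totals apply the minimum mean after rescaling. Over the 10905 genes kept as given, 289 were lower and 1990 higher with TPM, and 345 and 1507 with equal totals. For the 60 named genes the alternatives gave 362 values. Of these, 126 differed by at least 0.1 (log2) from the value reported, 60 with TPM, 60 with equal totals and 6 with a pseudocount of 1. Of the 60 genes, 16 changed sign with TPM, 12 with equal totals, and 1 each with size factors (RPL7L1) and centring (SSB), none of them past 1.5-fold as reported. With TPM these included EEF2, NAP1L1, EEF1A2, EEF1E1, DPH7, TIA1, LARP1B, SET, ACTB and VIM, and EEF2 was at 0.047 with equal totals.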

Other observations

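Some genes at the ends of the lists were not described above. Among the ribosomal protein genes, the lowest log2 translation efficiency ratios were those of RPL38 (-0.996), RPL32 (-0.99) and RPS15A (-0.97), and the highest were those of RPL21 (0.79), RPL7L1 (0.01) and RPL26L1 (-0.26). RPL21 had between 0.942 and 2.77 FPKM in the 4 libraries. Of the line's markers, CD44 and AXL were both at -0.02, ZEB1 at 0.53, ERBB2 was at 0.15, PECAM1 at -0.20 and COL1A1 at 0.54.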
